A study of Homo sapiens with 4 samples.

Results

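The integrated stress response and the unfolded protein response were described here through 38 genes among 34241 genes listed in the count tables of the series. The genes were chosen by name, but with earlier results of these data known. They fall into an ATF4 arm of 20 genes, an endoplasmic reticulum (ER) arm of 15 genes and 3 ER stress sensors. All 38 were found in every table. The cells are labelled A375, an established human melanoma line with an activating *BRAF* mutation. They were grown untreated (S, drug sensitive), or were made resistant to the BRAF inhibitor vemurafenib alone (RV), to vemurafenib with the MEK inhibitor cobimetinib (RVC) or to vemurafenib with the MEK inhibitor trametinib (RVT). The resistant cultures were exposed to the drugs for 10 to 14 days at concentrations below the IC50, and the inhibitors were withdrawn 24 h before capture, so the values describe cells off drug. Each condition was measured as 1 droplet library, and no condition has a replicate.

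In the integrated stress response, sensor kinases phosphorylate the initiation factor eIF2, which lowers general translation and favours translation of the transcription factor ATF4. ATF4 activates genes for amino acid uptake and synthesis, its partner factors and the feedback genes that end the response. In the unfolded protein response, PERK (the product of *EIF2AK3*), IRE1 (*ERN1*) and ATF6 sense misfolded protein in the ER, and through ATF4, spliced XBP1 and cleaved ATF6 they induce chaperones, disulfide isomerases and components of ER-associated degradation. The kinase arm of the unfolded protein response thus runs into the integrated stress response, and *DDIT3*, which encodes CHOP, stands at the point where they meet. Transcript levels of *ATF4*, *XBP1* and the sensors do not show their protein or splicing state, which these data do not measure.

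The promoters of the members differ in the response elements they hold. RefSeq promoters (GRCh38.p14, 250 bases before to 50 after the start site) were found for 33 of the 38 members, some with several start sites, 45 promoters in all. The ER stress element (ERSE), CCAAT and CCACG separated by 9 free bases and searched on both strands, was present in 6 of 14 ER arm genes and in none of 16 ATF4 arm genes. Among all 35116 promoters of the same length it was present in 0.0769%. The 7 matches are shown because they mark the members that share this element, 5′ to 3′ on the strand of the gene with 10 bases on either side and the element in capitals. CALR, CRELD2 and the second HSP90B1 site carry it on the opposite strand.
HSPA5: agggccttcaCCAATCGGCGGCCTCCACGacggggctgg
HSP90B1: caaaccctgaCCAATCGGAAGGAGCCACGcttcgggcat
HSP90B1: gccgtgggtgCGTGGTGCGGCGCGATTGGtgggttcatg
XBP1: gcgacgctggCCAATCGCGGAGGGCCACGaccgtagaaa
PDIA6: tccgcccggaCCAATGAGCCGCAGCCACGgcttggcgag
CALR: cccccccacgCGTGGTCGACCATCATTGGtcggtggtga
CRELD2: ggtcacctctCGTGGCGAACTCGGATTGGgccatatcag
The element lay between 225 and 34 bases before the start site in these genes, at chr9:125241391-125241409 for *HSPA5* and chr22:28800603-28800621 for *XBP1*. The core of the C/EBP-ATF response element (CARE), TGATGNAA on either strand, was present in 4 of 16 ATF4 arm genes, 1 of 14 ER arm genes and 3.62% of all promoters. The 4 matches before a start site are shown in the same way, and 1 of them, that of *HERPUD1*, belongs to the ER arm.
ASNS: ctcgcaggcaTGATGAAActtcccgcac
CEBPG: gcgcggcgtcTGATGCAAcctgccggca
CHAC1: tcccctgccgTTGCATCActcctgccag
HERPUD1: acgcggcgggTTGCATCAgcccgtgccc
The match in the remaining gene, *SLC3A2*, lay 38 bases after a start site. The third element searched, TGACGTGG, was present in *HYOU1* alone among the members and in 0.729% of all promoters. To show the context of the elements, the 250 bases before the start site of *HSPA5* (chr9:125241344-125241593, minus strand) and *ASNS* (chr7:97872409-97872658, minus strand) are printed whole, as one example of each arm.
HSPA5: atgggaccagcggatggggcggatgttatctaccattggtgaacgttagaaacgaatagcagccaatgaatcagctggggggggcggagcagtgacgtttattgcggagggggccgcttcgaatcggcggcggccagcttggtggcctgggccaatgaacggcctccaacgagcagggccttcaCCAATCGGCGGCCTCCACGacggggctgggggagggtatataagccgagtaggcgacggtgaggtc
ASNS: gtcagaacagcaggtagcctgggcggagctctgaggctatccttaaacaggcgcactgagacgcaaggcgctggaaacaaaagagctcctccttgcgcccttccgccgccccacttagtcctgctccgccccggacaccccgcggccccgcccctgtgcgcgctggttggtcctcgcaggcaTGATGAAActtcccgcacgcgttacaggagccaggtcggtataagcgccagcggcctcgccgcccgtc
A match is a description of letters in the window and not evidence of binding.

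The counts rest on 6334 cells of S and 4177 of RV, with 7620 of RVC and 8443 of RVT, after filtering. The libraries held 25428775 to 58518178 unique molecular identifiers (UMIs), with a median per cell of 8800 in S and 11557 in RV, with 3957 in RVC and 2874 in RVT. Levels are UMIs of a gene per 1000000 UMIs of its library (CPM), a relative scale. Intervals are exact 95% intervals that cover counting error only, and 3 UMIs, the limit that a count of 0 allows, correspond to 0.0513 to 0.118 CPM. S and RV were counted with one gene annotation and RVC and RVT with another, so annotation, depth and drug combination cannot be told apart where the former libraries are set against the latter. The melanoma marker *SOX10* stood at 86.7 CPM in S, 40.2 in RV and 19.2 in RVT, whereas RVC held no UMI of *SOX10* or *S100B* in 7620 cells. *S100B* was also low in RVT, at 0.275 CPM against 33.2 in S and 6.96 in RV. The *MIA* level of RVC was 1.95 CPM against 245.1 in S, so these 3 markers were absent or nearly so in the library labelled RVC, while *MITF* and *AXL* were present there at 8.05 and 78.3 CPM, against 9.81 and 93.9 in S. Whether RVC holds the same line as the other libraries was not tested, so every value of RVC, and each comparison with it, rests on its label. Summed fibroblast markers were 2.60 CPM in S and 2.25 in RV, with 45.7 in RVC and 35.3 in RVT, and *PTPRC*, *CD3E* and *CDH1* were at 0 in all 4 libraries. The other leukocyte and epithelial markers were at most 0.725 CPM except *CD68*, at 35.0 CPM in S and 70.6 in RV, with 152.2 in RVC and 66.0 in RVT, and *KRT8*, at 116.8 to 193.7 CPM. The part of these marker differences in the results was not tested. Between 37 and 101 cell barcodes were shared by pairs of libraries, at most 1.33% of a library.

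The arms were 1.22-fold (ATF4) and 1.09-fold (ER) lower in RV than in S, and they parted in the libraries resistant to a drug pair. The summed ATF4 arm measured 2119 CPM in S and 1733 in RV, with 380.9 in RVC and 624.7 in RVT. It was thus 5.56-fold lower in RVC and 3.39-fold lower in RVT than in S. The summed ER arm measured 997.7 CPM in S and 912 in RV, with 883.9 in RVC and 1521 in RVT, the highest value being that of RVT at 1.53 times the level of S (interval 1.51 to 1.54). Without *CALR*, its most abundant member, the ER arm was 1.31 times the S level in RVT and 1.35-fold lower in RVC. With TMM scaling, which takes account of the composition of each library, the log2 ratio of the ER arm sum in RVT over S was 0.09 instead of 0.61.

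**Figure D1:**
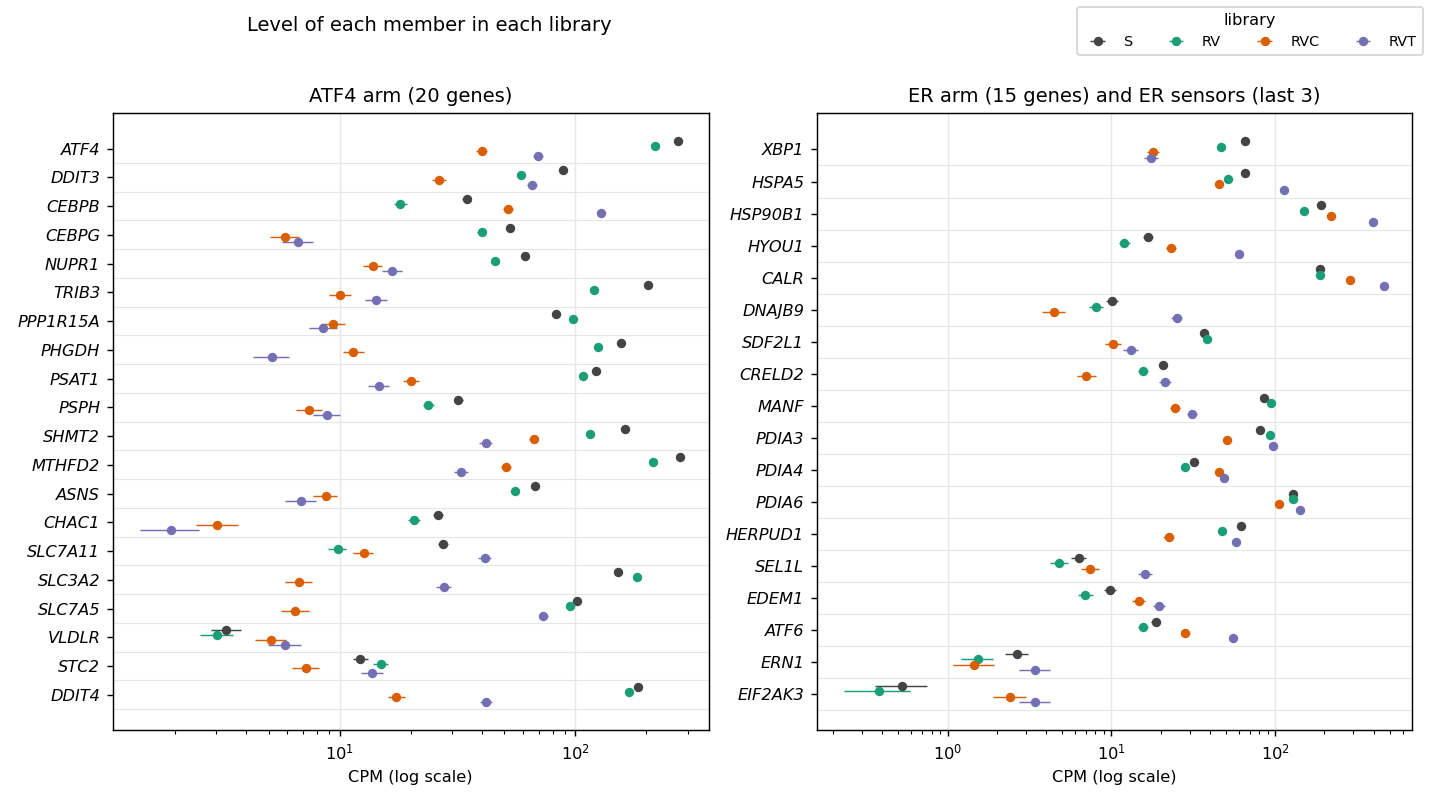
Level of each of the 38 members in CPM (log scale) in the S, RV, RVC and RVT libraries, ATF4 arm on the left and ER arm with the 3 sensors on the right. Points are 1 library each and bars are exact 95% Poisson intervals for counting error. Most ATF4 arm genes lie far lower in RVC and RVT than in S and RV, for example *TRIB3* at 203.1 CPM in S and 14.3 in RVT, while *CALR* and *HSP90B1* are highest in RVT.

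Members were called by size alone, as at least 2-fold apart, among 6504 genes with a mean of at least 10 CPM over the libraries. Of the 38 members 34 passed this limit, and *VLDLR*, *SEL1L*, *ERN1* and *EIF2AK3* did not. In RVC over S, 17 of 19 ATF4 arm genes were at least 2-fold lower and none was at least 2-fold higher, beside 23.3% lower and 22.4% higher among all genes. In RVT over S, 14 of 19 were lower and 1 was higher, beside 24.3% and 28.5% of all genes. *CHAC1*, among the genes called lower in both comparisons, had a mean of 13.0 CPM over the libraries and was below 10 CPM in RVC and RVT. Its levels in S and RV helped it pass the limit of 10 CPM, which favours these calls. In RV over S only *SLC7A11* was at least 2-fold lower, none was higher, and all genes gave 1.25% and 1.88%. The median log2 ratio of the arm was -0.34 in RV, -2.77 in RVC and -2.14 in RVT, beside 0.02, 0.16 and 0.21 for all genes. Relative to the median of all genes, the ATF4 arm median was -2.92 in RVC and -2.36 in RVT on the log2 scale. TMM scaling moved the median of all genes to -0.09 and -0.35 in these comparisons.

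The transcription factors and feedback genes of the ATF4 arm were mostly lower in both RVC and RVT libraries. *ATF4* itself measured 272.7 CPM in S and 216.8 in RV, with 40.1 in RVC and 69.4 in RVT. *TRIB3*, a pseudokinase that restrains ATF4 and AKT, measured 203.1 CPM in S and 119.3 in RV, with 10.1 in RVC and 14.3 in RVT. It was 20.2-fold lower in RVC (18.1 to 22.6) and 14.2-fold lower in RVT (12.8 to 15.8), larger differences than those of *ATF4*, which was 6.80-fold and 3.93-fold lower. *CEBPG*, a dimerization partner of ATF4, went from 52.6 CPM in S and 40.0 in RV to 5.87 in RVC and 6.65 in RVT. *NUPR1*, a stress-induced chromatin factor, went from 61.3 and 45.5 to 13.9 and 16.7 CPM. *PPP1R15A*, which encodes the phosphatase subunit GADD34 that reverses eIF2 phosphorylation, was at 82.8 CPM in S and 97.6 in RV against 9.39 in RVC and 8.53 in RVT. The last 500 bases of its longest transcript were rich in G and C (60.8%), and ratios of all genes over S fell with this share, with a Spearman correlation across genes of -0.347 in RVC and -0.411 in RVT. After centring on GC content the log2 ratio of *PPP1R15A* was -0.58 in RVC over S and -0.68 in RVT over S, no longer 2-fold.

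*CEBPB* departed from this pattern, and *DDIT3* was called lower in RVC but not in RVT. *DDIT3*, the pro-apoptotic factor CHOP, measured 88.2 CPM in S and 59.0 in RV, with 26.4 in RVC and 65.7 in RVT. Its RVT level was 1.34-fold below S but 2.48 times that of RVC (2.29 to 2.70). Without the 1.25% of RVT cells with most ER arm UMIs, described further on, it was 46.5 CPM and 1.76 times RVC, short of 2-fold. *DDIT3* overlaps *MARS* and *MBD6* on the opposite strand, which measured 24.3 and 33.3 CPM in RVT, and *AC022506.1* on the same strand, a gene listed for RVC and RVT alone, at 0 in both. Whether counting used strand, and how it treated reads that fit several genes, is not given in the sources used here. The part of *AC022506.1* in the *DDIT3* counts of RVC and RVT was not tested, and its 0 does not settle it. *HSP90B1*, *CRELD2* and *SHMT2* also overlap a gene, and *ATF4*, *PSAT1*, *PSPH*, *MTHFD2*, *ASNS*, *SLC7A5*, *XBP1* and *PDIA3* have pseudogene copies that the tables do not list, so their counts are less certain. Several other members, among them *CEBPB*, *CALR* and *VLDLR*, overlap genes that measured at most 1.98 CPM in any library. *CEBPB*, a bZIP factor of stress and inflammation, measured 34.5 CPM in S and 18.1 in RV, with 51.7 in RVC and 128.1 in RVT. It was 3.71 times the S level in RVT (3.51 to 3.92), the single ATF4 arm gene called higher there.

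Enzymes that make serine, glycine and one-carbon units were all at least 2-fold lower in both RVC and RVT. *PHGDH*, the first enzyme of serine synthesis, measured 155.6 CPM in S and 124.6 in RV, with 11.4 in RVC and 5.15 in RVT. Its RVT level was 30.2-fold below S (25.4 to 36.2), a log2 ratio of -4.92 that GC centring brought to -2.92. *PSAT1*, the second enzyme, measured 122.6, 107.7, 20.1 and 14.7 CPM in S, RV, RVC and RVT, and *PSPH*, the last, 31.9, 23.8, 7.45 and 8.85. The mitochondrial folate enzymes behaved alike in direction. *MTHFD2* measured 277.1 CPM in S and 214.1 in RV, with 50.8 in RVC and 32.9 in RVT, and *SHMT2*, which converts serine to glycine, 162.5, 115.7, 66.5 and 41.6. *ASNS*, asparagine synthetase, measured 67.7 CPM in S and 55.6 in RV, with 8.72 in RVC and 6.88 in RVT. *CHAC1*, which degrades glutathione, was low throughout and measured 26.2, 20.7, 3.04 and 1.93 CPM in the same order, and GC centring brought its log2 ratios from -3.11 to -1.56 in RVC and from -3.76 to -1.77 in RVT over S.

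The amino acid transporters separated RVT from RVC. *SLC7A5*, the LAT1 carrier of large neutral amino acids, measured 101.3 CPM in S and 94.8 in RV, with 6.47 in RVC and 73.1 in RVT. *SLC3A2*, the heavy chain that brings both light chains of this group to the membrane, measured 151.4 CPM in S and 182.6 in RV, with 6.72 in RVC and 27.7 in RVT. *SLC7A11*, the cystine carrier xCT, measured 27.4 CPM in S and 9.81 in RV, with 12.6 in RVC and 41.2 in RVT. All 3 were at least 2-fold higher in RVT than in RVC, *SLC7A5* by 11.3 times (9.80 to 13.1). *SLC7A11* had its lowest level in RV and its highest in RVT. Heavy and light chain did not keep one ratio, since *SLC3A2* was 5.48-fold and *SLC7A5* 1.39-fold below S in RVT. GC centring brought the log2 ratio of *SLC3A2* from -2.45 to -1.42.

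Of the remaining targets, *DDIT4*, an inhibitor of mTORC1, measured 184.9 CPM in S and 169.5 in RV, with 17.4 in RVC and 41.9 in RVT. *STC2*, a secreted glycoprotein, measured 12.3, 14.9, 7.20 and 13.7 CPM and was lowest in RVC, 1.70-fold below S (1.47 to 1.98). It passed 2-fold with GC centring in RVC over S and, in RVT over RVC, with library sizes that leave out ribosomal and mitochondrial genes. *VLDLR*, a lipoprotein receptor, was under 6 CPM in every library. Set side by side, RVT over RVC had 6 of 19 ATF4 arm genes at least 2-fold higher and 1, *PHGDH*, at least 2-fold lower, against 14.9% and 11.8% of all genes. *PHGDH* fell short of 2-fold with GC centring (log2 ratio -0.78) and with cells of at least 1000 genes (-0.98). The higher ones were *DDIT3*, *CEBPB*, *DDIT4* and the 3 transporters (*DDIT4* fell short of 2-fold with TMM scaling, at 0.97 log2 units, and *DDIT3* without the cells named above), while the biosynthetic enzymes, other than *PSPH*, were lower in RVT, and *PSPH* was lower too with TMM scaling.

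**Figure D2:**
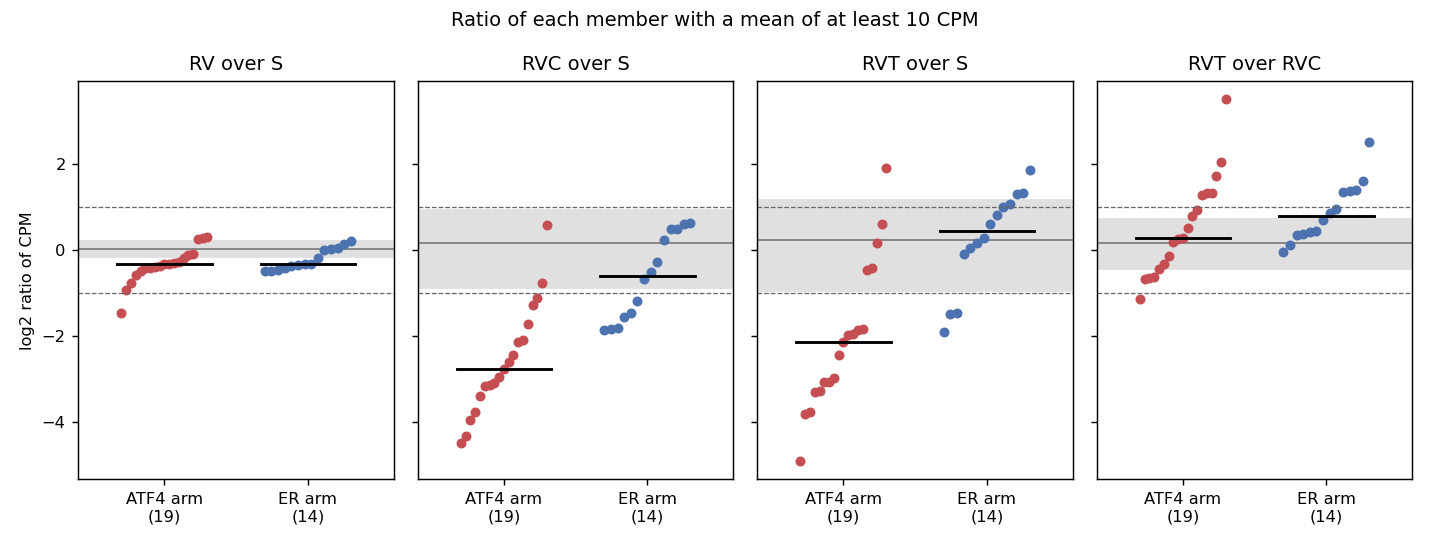
Log2 ratio of CPM for the 19 ATF4 arm genes and 14 ER arm genes with a mean of at least 10 CPM, in 4 comparisons. Each point is 1 gene, black bars are medians, the grey band and line are the quartiles and median of all 6504 genes, and dashed lines mark 2-fold. In RVC and RVT over S the ATF4 arm medians lie at -2.77 and -2.14, below the grey band, and in RVT over RVC the ER arm median of 0.77 lies above it.

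Among ER arm genes, the abundant chaperones were highest in RVT, while *XBP1*, *SDF2L1* and *MANF* were at least 2-fold lower than S in both RVC and RVT, *SDF2L1* in neither after GC centring. In RVT over S, 5 of 14 genes were at least 2-fold higher and 3 at least 2-fold lower, against 28.5% and 24.3% of all genes. Both counts were thus near the shares of all genes. *DNAJB9*, among the 5, had a mean of 11.9 CPM over the libraries and was below 10 CPM in RV and RVC. Its level in RVT helped it pass the limit of 10 CPM, which favours its calls as higher in RVT over S and over RVC. In RVC over S the counts were 0 and 6, against 22.4% and 23.3%. No gene passed 2-fold in RV over S. The median log2 ratio was -0.33 in RV and -0.60 in RVC, but 0.44 in RVT over S and 0.77 in RVT over RVC, where 5 genes were at least 2-fold higher and none lower, against 14.9% and 11.8% of all genes. Relative to the median of all genes these medians were -0.36 and -0.76, then 0.22 and 0.62.

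*HSP90B1* (GRP94), the ER member of the HSP90 family, measured 190.2 CPM in S and 149.6 in RV, with 220.5 in RVC and 396.6 in RVT. *CALR*, the lectin chaperone calreticulin, measured 187.3, 187.9, 285.6 and 462.2 CPM. *HYOU1*, a large chaperone and nucleotide exchange factor, measured 16.8, 12.0, 23.2 and 60.4 CPM. All 3 genes were highest in RVT and second in RVC, although *HSP90B1* in RVC over S, at 0.21 on the log2 scale, was -0.0030 with TMM scaling and -0.066 with GC centring, and *HYOU1* in RVT was 3.61 times S (3.33 to 3.91). *HSPA5* (BiP), the central ER chaperone that holds the sensors inactive, measured 65.3 CPM in S and 51.6 in RV, with 45.2 in RVC and 113.7 in RVT, 2.52 times RVC and 1.74 times S. *DNAJB9*, a BiP co-chaperone, measured 10.1, 8.03, 4.44 and 25.01 CPM and was 5.64 times higher in RVT than in RVC. *DNAJB9* overlaps *PNPLA8* and *THAP5* on the opposite strand, which were also highest in RVT at 27.72 and 33.03 CPM.

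The lower members included the transcription factor. *XBP1* measured 65.6 CPM in S and 46.7 in RV, with 18.0 in RVC and 17.5 in RVT, and RVC and RVT did not differ beyond counting error (ratio 0.970, interval 0.856 to 1.10). *MANF*, a secreted ER stress factor, measured 86.0, 94.9, 24.6 and 31.0 CPM. *SDF2L1*, a partner of BiP, measured 36.9, 38.1, 10.2 and 13.1 CPM. *SDF2L1* has 60.0% G and C in its last 500 bases, and with GC centring both of its calls ended, its log2 ratio going from -1.85 to -0.30 in RVC over S and from -1.50 to 0.50 in RVT over S. *CRELD2*, another ER stress-induced protein, measured 20.8, 15.5, 7.05 and 21.3 CPM, so that RVC stood apart from the other libraries.

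The disulfide isomerases differed less. *PDIA6* measured 128.0 CPM in both S and RV, 104.8 in RVC and 141.4 in RVT. *PDIA3* measured 80.8, 92.8, 50.8 and 97.5 CPM, and *PDIA4* 32.1, 28.1, 45.1 and 48.8. None of the 3 passed 2-fold as scaled here. *PDIA3* did so in RVT over RVC with library sizes that leave out ribosomal and mitochondrial genes (log2 ratio 1.05), and with TMM scaling *PDIA3* and *PDIA6* were lower in RVT than in S. In ER-associated degradation, *HERPUD1*, which organizes the ubiquitin ligase complex, measured 61.6 CPM in S and 47.1 in RV, with 22.4 in RVC and 57.3 in RVT. *EDEM1*, which hands glycoproteins to degradation, measured 9.79, 6.93, 14.7 and 19.6 CPM and was exactly at the limit in RVT, 2.00 times S, with a log2 ratio of 0.34 after GC centring. *SEL1L*, the adaptor of the ligase, measured 6.31, 4.77, 7.42 and 16.0 CPM. The scale decided part of these calls, since with TMM scaling *HYOU1* alone was at least 2-fold higher in RVT over S.

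Of the sensors, *ATF6* measured 18.6 CPM in S and 15.5 in RV, with 28.3 in RVC and 55.1 in RVT, 2.96 times the S level in RVT (2.73 to 3.21). *ERN1* measured 2.65, 1.53, 1.46 and 3.42 CPM and *EIF2AK3* 0.530, 0.382, 2.40 and 3.42 CPM. *EIF2AK3* was 6.46 times S in RVT, with a wide interval of 4.24 to 10.1. All 3 CPM values were highest in RVT, but the interval of *ERN1* in RVT over S spanned equality (ratio 1.29, 0.982 to 1.69), the intervals of the *EIF2AK3* levels in RVC and RVT overlapped, and both genes were too low for a call.

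In RVT the ER arm had a tail of cells with many UMIs. For a comparison at equal depth, each cell was thinned to 1500 UMIs, and 403 RVC and 848 RVT cells with fewer were left out. Thinned cells held a mean of 1.52 ER arm UMIs in S and 1.396 in RV, with 1.36 in RVC and 2.29 in RVT. The Fano factor (variance over mean, 1 for random sampling) of this sum was 1.13 in S and 1.15 in RV, with 1.29 in RVC and 2.60 in RVT, and its highest value was 11, 10, 12 and 53 UMIs. Over single genes with a mean of at least 0.02 UMIs the median Fano factor was between 1.01 and 1.02. A sum of genes also holds their covariance, so its Fano factor is not on the scale of single genes. The tenth of cells with most ER arm UMIs held 30.8% of them in RVT, close to 30.0% in RVC, 28.2% in RV and 27.7% in S, so the libraries differed in the tail and little in this share. In RVT the most uneven members were *DDIT3* at 2.43, *HSPA5* at 2.12, *HSP90B1* at 1.69 and *HERPUD1* at 1.44, whereas *ATF4* stood at 0.997. *DDIT3* was seen in 6.23% of RVT cells (5.70 to 6.80) and with up to 10 UMIs in 1 cell, against 11.7% and up to 3 UMIs in S, 7.83% and up to 7 in RV, and 3.78% and up to 2 in RVC. Unthinned, it was seen in 11.5% of RVT and 48.8% of S cells.

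**Figure D3:**
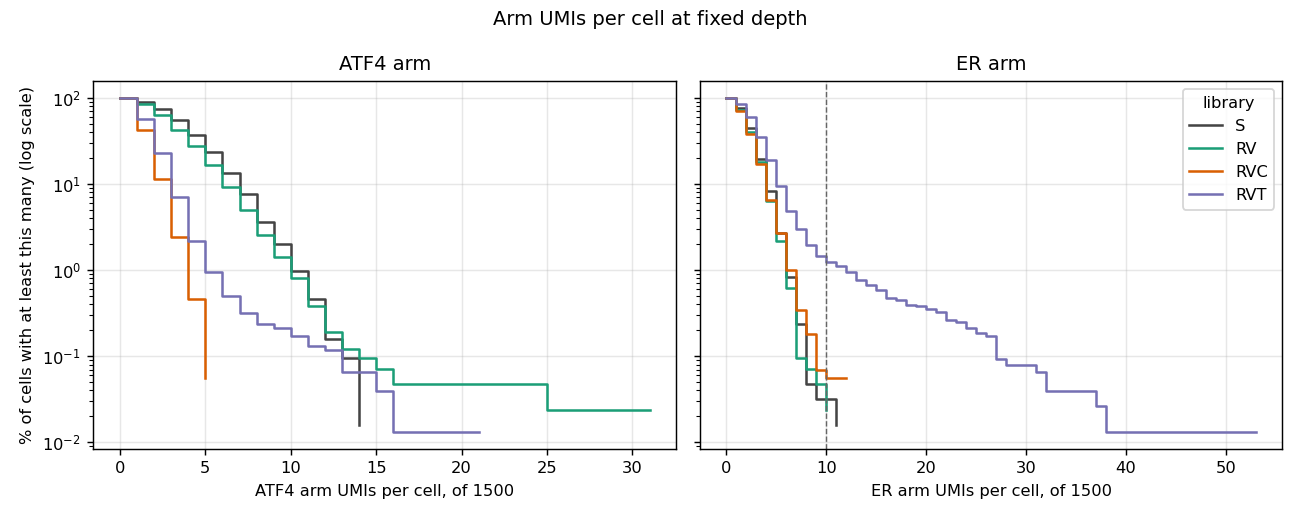
Share of cells (log scale) that held at least a given number of ATF4 arm (left) or ER arm (right) UMIs, after thinning each cell to 1500 UMIs, with 1 line per library. The dashed line marks 10 ER arm UMIs. The RVT line leaves the others on the right and reaches 53 UMIs, where the other libraries end at 10 to 12, and on the left S and RV lie above RVC and RVT up to 12 UMIs.

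At least 10 ER arm UMIs of 1500 were found in 95 of 7595 RVT cells, 1.25% (exact interval 1.01 to 1.53). The same count was reached by 2 of 6334 S cells, 1 of 4177 RV cells and 4 of 7217 RVC cells. The limit was chosen after the values were seen, and the tail has no gap there, with 36 RVT cells at 8 UMIs, 17 at 9, 11 at 10 and 11 at 11. These 95 cells held 9.13% of all thinned ER arm UMIs of RVT. They were slightly deeper than the other RVT cells before thinning (median of 3507 against 3038 UMIs) and had a lower mitochondrial share (4.01% against 5.72%), and the part of either in the result was not tested. The cells were chosen by the ER arm sum, so the ER arm values in them are a description: its mean was 16.7 UMIs, against 2.11 in the other RVT cells, with *HSPA5* at 3.09 against 0.128 and *HERPUD1* at 1.37 against 0.0644.

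The summed ATF4 arm, which did not enter the choice of these cells, had a mean of 4.55 UMIs in them and 0.876 in the other RVT cells. *DDIT3* had a mean of 2.15 UMIs in the 95 cells and 0.0631 in the others, 34.1 times as much. It thus gave 2.15 of the 4.55 arm UMIs in these cells, and the sum without it was not computed. *MTHFD2* had 0.474 against 0.0415 UMIs, 11.4 times as much. *SHMT2* was 4.77 times and *SLC7A11* 3.85 times higher. *CEBPB*, *SLC7A5* and *ATF4* were not set apart in this way, with ratios of 0.908, 0.943 and 1.63. Of the 20 ATF4 arm genes 10 had a mean of at least 0.02 UMIs in the other RVT cells, and 6 of these 10 were at least 2-fold higher in the 95 cells, beside 12.3% of 5690 genes. This limit was set on the other cells alone, after the data were seen, and the remaining 10 genes were too sparse for a ratio. Of the 6 genes, *NUPR1* and *SLC3A2* rested on 7 and 10 UMIs in the 95 cells.

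Of the other ER genes that are not members, 33 of the 50 above the same limit were at least 2-fold higher in the 95 cells, beside the 12.3% of all genes. *SELENOK*, a selenoprotein of ER-associated degradation, had 2.07 against 0.274 UMIs. *PPIB*, the ER cyclophilin, had 2.07 against 0.419, and *DNAJC3*, an inhibitor of the eIF2 kinases, 0.547 against 0.0800. Of other integrated stress response genes 11 of 30 were at least 2-fold higher, beside the same share of all genes, led by *WARS1*, a tRNA synthetase, at 4.65 times. Among genes in none of the lists the highest ratio was that of *NUCB2*, at 22.1 times. The 95 cells are 1.25% of 1 library and cannot be followed in a replicate.

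**Figure D4:**
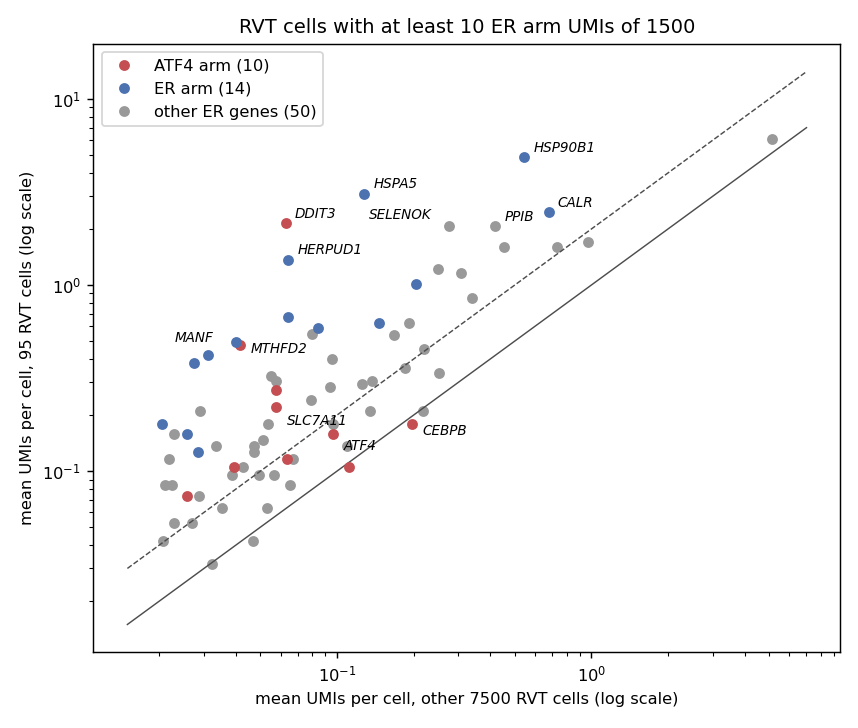
Mean UMIs per thinned cell (log scales) in the 95 RVT cells with at least 10 ER arm UMIs against the other RVT cells, for 10 ATF4 arm, 14 ER arm and 50 other ER genes with a mean of at least 0.02 UMIs in the latter. Each point is 1 gene, the solid line marks equal means and the dashed line 2-fold. The ER arm genes chose the cells. *DDIT3*, which did not, lies among them at 2.15 against 0.0631 UMIs, and *CEBPB* lies near the line of equal means.

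When such cells were left out of every library, an alternative added after the values were seen, the ER arm sum of RVT went from 1521 to 1402 CPM. On the CPM scale it was 1.41 times that of S. With TMM scaling, which brought the sum with all cells near that of S, it was not computed. *HSPA5* went from 113.7 to 88.6 CPM, *DDIT3* from 65.7 to 46.5, and *HSP90B1* from 396.6 to 360.9. *HSP90B1* and *EDEM1* then fell short of 2-fold over S, at 1.90 and 1.93 times, so that 3 of 14 genes were called higher in place of 5. The cells were chosen by a high ER arm sum, and most of them lay in RVT. A lower ER arm sum in RVT was thus fixed in advance, and the lower values of its members are no separate observation. *DDIT3* and *HSPA5* also fell short of 2-fold over RVC, at 1.76 and 1.97 times, whereas *HYOU1* stayed 3.35 times above S.

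The ATF4 arm sum had Fano factors of 1.56 in S and 1.81 in RV, with 1.07 in RVC and 1.44 in RVT. The tenth of cells with most of its UMIs held 24.3% in S and 27.4% in RV, with 40.9% in RVC and 34.9% in RVT, where the mean was low. Thinned cells held a mean of 3.08 ATF4 arm UMIs in S and 2.56 in RV, with 0.561 in RVC and 0.921 in RVT. At least 10 were found in 61 S, 34 RV, 0 RVC and 13 RVT cells, and the cell with most, in RV, held 31. Cells without any ATF4 arm UMI made up 9.69% of S, 14.3% of RV, 58.2% of RVC and 42.7% of RVT cells.

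How members varied together was described by Pearson correlations across the cells of 1 library, with the depth of the cell partialled out, for members seen in at least 10% of its cells. In S the median over 153 pairs within the ATF4 arm was 0.086, over 66 pairs within the ER arm 0.032 and over 216 pairs between the arms 0.015. In RV these were 0.134, 0.054 and 0.031. The median over all pairs of genes was 0.003 in S and 0.005 in RV, with 99th percentiles of 0.071 and 0.100, so that the median ATF4 arm pair lay above the 99th percentile of all pairs in both libraries. In RVC and RVT only 5 and 7 ATF4 arm genes reached the detection limit, with medians of 0.015 and 0.014. The ER arm median in RVT was 0.068, above the 99th percentile of all pairs there of 0.053. Cells thinned to 1500 UMIs gave smaller values, 0.020 and 0.024 within the ATF4 arm in S and RV and 0.053 within the ER arm in RVT. The pairs of all genes were not matched to the members in abundance, and their percentile was not computed in thinned cells.

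**Figure D5:**
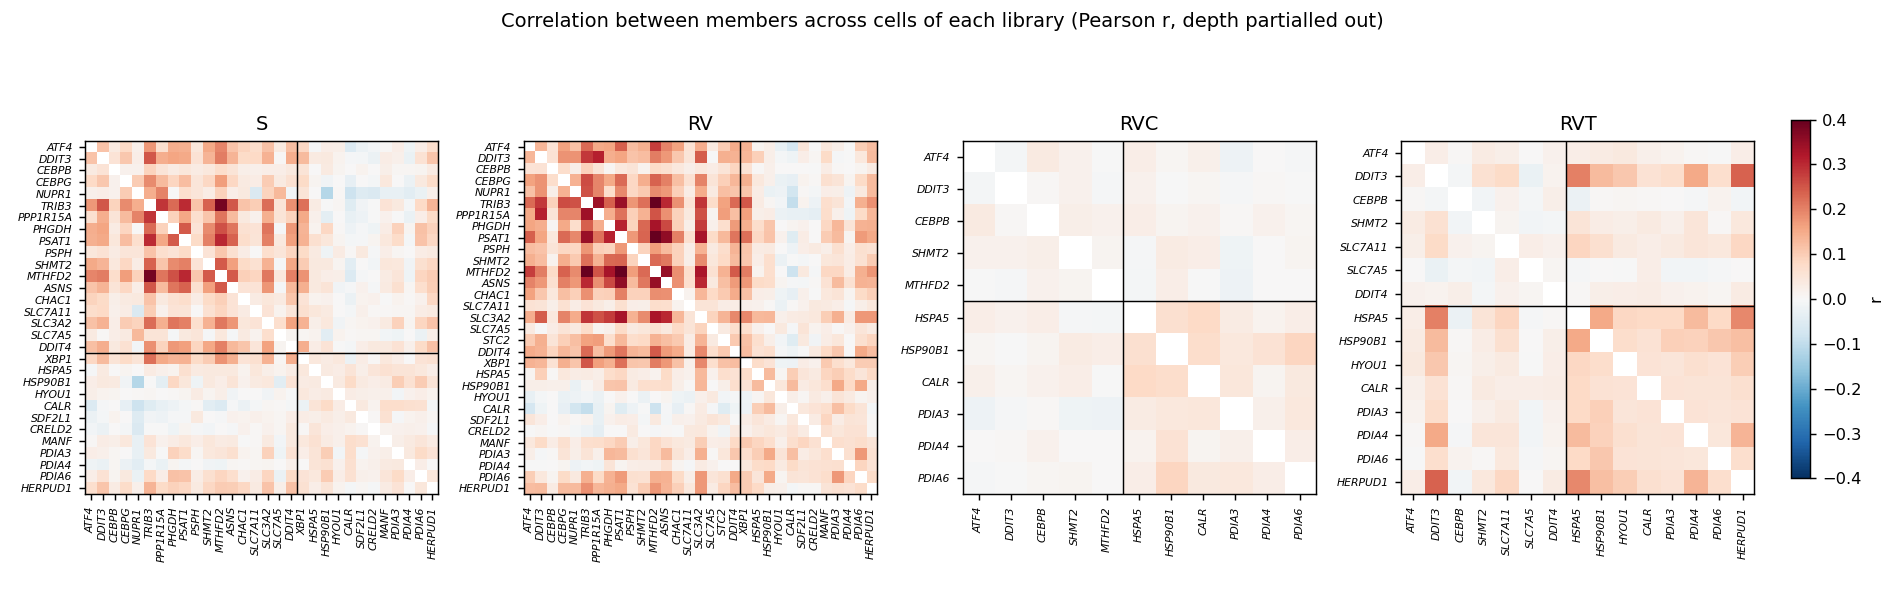
Pearson correlation between members across cells of the S, RV, RVC and RVT libraries with depth partialled out, for members seen in at least 10% of cells. Black lines part the ATF4 arm (first) from the ER arm, and colour runs from -0.4 (blue) to 0.4 (red). In S and RV the ATF4 arm forms the red block, with *TRIB3* and *MTHFD2* at 0.384 and 0.411, and *DDIT3* with *HERPUD1* stands at 0.110 in S, 0.127 in RV and 0.235 in RVT.

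The strongest pairs are named for each library, but the members above the detection limit were not the same in each. *TRIB3* and *PSAT1* in RVC and RVT, *MTHFD2* in RVT and *HERPUD1* in RVC were below it, so their pairs were not computed there. In RV they were *PSAT1* with *MTHFD2* at 0.446 and *TRIB3* with *MTHFD2* at 0.411, and in S *TRIB3* with *MTHFD2* at 0.384. Within the arm, *CEBPB* and *SLC7A5* were the least tied to the other members in S, with correlations of 0.094 and 0.072 with the rest of the arm, against 0.490 for *TRIB3*. In RVT the 2 strongest pairs crossed the arms and both held *DDIT3*, at 0.235 with *HERPUD1* and 0.200 with *HSPA5*. The pair *HSPA5* and *HERPUD1* followed at 0.191. In RVC no pair of members exceeded 0.086. At fixed depth in RVT, *HSPA5* was seen in 24.7% of 473 cells with a *DDIT3* UMI (20.9 to 28.9) and 11.9% of the other 7122 (11.2 to 12.7). For *HERPUD1* the shares were 17.8% and 6.04%. These shares and all RVT correlations include the cells with at least 10 ER arm UMIs, which were rich in *DDIT3*, *HSPA5* and *HERPUD1*. They are thus no separate observation from that tail, and values without those cells were not computed. The correlation of *DDIT3* with *HERPUD1* was also above the 99th percentile of all pairs in S, at 0.110, and in RV, at 0.127, and so was that with *XBP1*, at 0.127 and 0.133. Neither was the strongest pair between the arms in S or RV, where *TRIB3* with *XBP1* stood at 0.221 and 0.247. The correlation of *DDIT3* with *HSPA5* was 0.035 in S and 0.096 in RV. At fixed depth the shares in S were 9.57% and 8.78% for *HERPUD1* and 8.760% and 8.995% for *HSPA5*, with overlapping intervals. For *XBP1* they were 10.8% and 8.89% in S and 8.56% and 7.01% in RV, again with overlapping intervals. In RV, cells with *DDIT3* more often held *PPP1R15A* (21.4% against 11.3%) and *CHAC1* (7.03% against 2.73%), and *HERPUD1* was seen in 7.03% and 7.22%.

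The genes whose counts followed each arm most closely, among all genes seen in at least 10% of cells, also differed. For the ATF4 arm sum they were the histone genes *HIST1H4C* (0.556) and *H2AFZ* (0.531), then *TRIB3* and *MTHFD2*, in S. In RV they were *H2AFZ* (0.620), *HIST1H4C* (0.605) and *TUBA1B* (0.602), then *HMGB1* (0.561) and *MTHFD2* (0.539). The histone genes *HIST1H4C* and *H2AFZ* thus moved with the ATF4 arm across cells in both libraries. They were picked from the closest genes, no list of histone genes was examined, and their part in the correlations of the arm was not tested. For the ER arm sum in RVT the leading gene was *HSPA5* (0.162), followed by *MALAT1* (0.162), *PPIB* (0.157), *HERPUD1* (0.156), *B2M* (0.153) and *DDIT3* (0.152). For the ATF4 arm sum in RVT *HERPUD1* (0.107) and *HSPA5* (0.089) led. In RVC 9 of the 10 genes closest to the ER arm sum were mitochondrial, led by *MT-CO3* at 0.288, and the sum correlated with the mitochondrial share at 0.210. In RVT the latter correlation was 0.001.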

How the data were processed

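Single A375 cells were captured on the 10x Genomics Chromium system (v2 reagents), 10000 loaded per library. The tables held 6695 barcodes in S and 4328 in RV, with 9266 in RVC and 10427 in RVT. RVT thus held more barcodes than cells loaded, and whether each barcode kept here is a cell was not tested. Per the labels, the authors used bcl2fastq 2.20.0.422 and Cell Ranger with GRCh38, and deposited the raw counts of UMIs (whole numbers) for each cell, not normalized. The gene annotation is not given in the sources used here. Cells with at least 500 genes and at most 20% mitochondrial UMIs were kept, and the highest scrublet scores (0.8% per 1000 barcodes) were removed as doublets with scanpy 1.11.5. UMIs were summed per library and scaled to CPM. Genes were placed with GENCODE 29 on GRCh38. With 1 library per condition no test was possible: genes were called by a 2-fold difference, with exact Poisson, conditional binomial and binomial intervals (scipy 1.17.1) that cover counting error only. No cells known to lack these genes were available to measure free RNA.

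The members and gene lists were chosen with earlier results of these data known, and the limit of 10 ER arm UMIs, with the limit of 0.02 UMIs on the other cells, after the values were seen. All 38 members were named. Of the other pathway lists the 3 genes highest and the 3 lowest against S in each library could be named, and for correlations the 10 closest genes. Other genes named were chosen after their values were seen. Alternatives covered TMM scaling (edgeR 4.0.16 in R 4.3.3), library sizes without ribosomal and mitochondrial genes, cell weights, cell, doublet and expression filters, and GC centring in 20 bins over the last 500 bases of each gene's longest transcript. Protein sequences were not used here.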

Additional observations from a re-analysis of the deposited data

How the results depend on the processing

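No paired analysis was possible because each condition has 1 library, and for the same reason no replicate could be left out. Of 160 counts of members at least 2-fold apart under the alternatives, 148 were within 1.5 times the reported count. With a mean of at least 50 CPM required, which leaves 11 ATF4 arm and 6 ER arm genes, the ATF4 arm genes called lower were 0 in RV over S, 10 in RVC over S and 8 in RVT over S, and the ER arm counts were 1 lower in RVC over S, 2 higher and 1 lower in RVT over S, and 1 higher in RVT over RVC. The 1 ATF4 arm gene called lower in RVT over RVC, *PHGDH*, became 0 with cells of at least 1000 genes and with GC centring, and the cause was not tested. The 5 ER arm genes higher in RVT over S became 1 with TMM scaling, 2 with GC centring and 3 without the cells of at least 10 ER arm UMIs, an alternative added after the data were seen. That alternative takes out cells chosen by a high ER arm sum, most of them in RVT, so it could only lower this sum there. With library sizes without ribosomal and mitochondrial genes 4 of 15 were higher, *HSP90B1* and *EDEM1* falling short and *SEL1L* passing both limits. The shares of all genes past 2-fold were not computed under any alternative, so the counts under the alternatives cannot be judged against them. GC centring moved 11 fold ratios of 6 members by over 1.5 times. No other scaling or cell filter moved the fold ratio of a single member that far. The log2 ratio of *SDF2L1* in RVT over S reversed from -1.50 to 0.50 with GC centring, and the cause was not tested. Of 34 members, the sign changed under at least 1 alternative for 3 in RV over S, 1 in RVC over S, 5 in RVT over S and 6 in RVT over RVC.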

Other observations

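Genes of the same pathways outside the 38 members were also described. Of other integrated stress response genes 37 passed the limit of 10 CPM, and 13 were at least 2-fold lower and 1 higher in RVC over S, 11 and 4 in RVT over S, and 0 and 1 in RV over S. Of all genes 23.3% were lower and 22.4% higher in RVC, 24.3% and 28.5% in RVT, and 1.25% and 1.88% in RV, so the share of lower genes in RVT was near that of all genes. The 1 gene in RV was *GDF15*, a stress-induced cytokine, at 142.8 CPM against 28.3 in S and 2.36 in RVT. *EIF4EBP1*, a repressor of cap-dependent translation, measured 631 CPM in S, 64.3 in RVC and 10.0 in RVT, 62.9-fold lower in the last. All 12 tRNA synthetases measured lower in RV than in S, 10 of 12 in RVC and 10 of 12 in RVT, where 3041, 2949 and 2898 of all 6504 genes did. In RVC and RVT 3 and 2 synthetases were at least 2-fold lower, a share near that of all genes. *PPP1R15B*, the constitutive counterpart of *PPP1R15A*, measured 9.11 CPM in S and 32.3 in RVT.

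Of other ER genes 51 passed the limit, and 12 were at least 2-fold higher and 11 lower in RVC over S, 13 and 8 in RVT over S, and none in RV over S. In RVC both counts and in RVT the higher count were near the shares of all genes given above, and the lower count in RVT was below. *EDEM3*, a mannosidase of ER-associated degradation, measured 8.15 CPM in S, 76.3 in RVC and 33.1 in RVT. *FKBP14*, a prolyl isomerase of collagen folding, measured 2.65 CPM in S, 16.7 in RVC and 23.1 in RVT. Its levels in RVC and RVT helped it pass the limit of 10 CPM, which favours its calls as higher. *SELENOS*, a selenoprotein of the degradation complex, measured 131.8 CPM in S, 32.8 in RVC and 37.7 in RVT. The median log2 ratio of these genes was 0.22 in RVC and 0.16 in RVT over S, beside 0.16 and 0.21 for all genes.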
